A study of Danio rerio with 3 samples.

Results

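The Gadd45 genes of cranial cartilage were described in RNA that had been laser-captured from wild-type zebrafish larvae at 6 dpf. Every row of the deposited count table whose name begins with gadd45, in either case, was taken, which gave 7 family rows of 14417 in all. These were gadd45aa, gadd45ab, gadd45ba, gadd45bb, gadd45g and 2 numbered copies listed as GADD45G (1 of 3) and GADD45G (3 of 3). The name gadd45g is a RefSeq synonym of gadd45ga, whereas the numbered copies are given here only as the table names them. The same search found gadd45gip1, which encodes a protein of mitochondrial ribosomes that can bind Gadd45 proteins but is not one of them, and it is reported apart. The study captured cartilage of the occipital part of the cranial base from tissue sections, leaving the perichondrium out, and sequenced 3 samples processed independently. They are numbered 1, 3 and 6 as replicates and are named here as libraries by those numbers. All were untreated wild types, so there was no contrast between conditions and no test of differential expression. How many larvae went into a sample is not given in the sources used here.

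Gadd45 proteins (growth arrest and DNA damage) are small acidic proteins with no known enzyme activity of their own, which act by binding other proteins. In mammals they bind and activate the kinase MAP3K4 upstream of p38 and JNK, they bind PCNA, p21 and the complex of CDK1 with cyclin B1, and they take part in excision repair and active DNA demethylation. Their transcripts are short-lived and are induced by DNA damage, by other cell stress and by growth factors, including BMPs and TGF-beta. In mouse cartilage, Gadd45b is a BMP-induced gene of maturing chondrocytes that promotes expression of Mmp13 and Col10a1, and in zebrafish embryos gadd45b genes are known for their role in somite segmentation. The study placed Gadd45 genes among those of the BMP pathway, and the question here is which of them cartilage expressed and how steadily.

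The depth was between 18920027 and 25604897 counts per library, of which a single gene listed as AC024175.4 took 34.7% to 59.0%. Counts were scaled by the TMM method of edgeR, and a normalized count is a count put on the scale of the mean library. On this scale 1 read was worth 0.947 to 1.102 normalized counts, and a gene with 0 reads could still be present at up to 3 reads. Chondrocyte markers were abundant in every library. All 18 of those found in the table reached 10 normalized counts in each, against 67.8% of all rows. They were led by the collagen genes col2a1a with 366461 ± 102634 (SD, n = 3 libraries) and col11a1a with 328326 ± 101117. Library 1 stood apart in the summed markers of neighbouring tissue, though not in each bone gene, as given below. Its summed perichondrium and bone markers were at 265228 normalized counts, against 24374 in library 3 and 65565 in library 6. Its summed epidermis markers were at 40571, against 5351 and 5401. Single genes, named after their values were seen, made up much of these sums. In libraries 1, 3 and 6, sparc held 65879, 17673 and 51324 of the first sum, and col1a1b 91711, 435 and 1864. Of the epidermis sum, zgc:92533 held 11122, 5039 and 4354. All 8 epidermis genes were at least 2-fold lower in both other libraries, against 14.8% of the 13166 rows averaging 10 or more normalized counts. Of the 8, cldne, cldnb and zgc:165571, named after their values were seen, average 10 or more only through library 1. No library was a copy of another, the chi-square per degree of freedom between libraries being between 165.6 and 416.1.

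Of the 7 family rows, 6 reached 10 normalized counts in all libraries, a minimum that 67.8% of all rows in the table passed. The exception was gadd45aa. The median level was 626 normalized counts over the 7 family rows and 110.0 over all 14417 rows. Together the family held 4173, 13414 and 11932 reads in libraries 1, 3 and 6, which was 0.0397%, 0.136% and 0.0966% of the reads outside AC024175.4. The normalized sum was 10034 ± 5484 (SD, n = 3 libraries), and library 1 was the lowest. In bulk RNA, fewer cells that express a gene and less RNA per cell cannot be told apart.

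**Figure D1:**
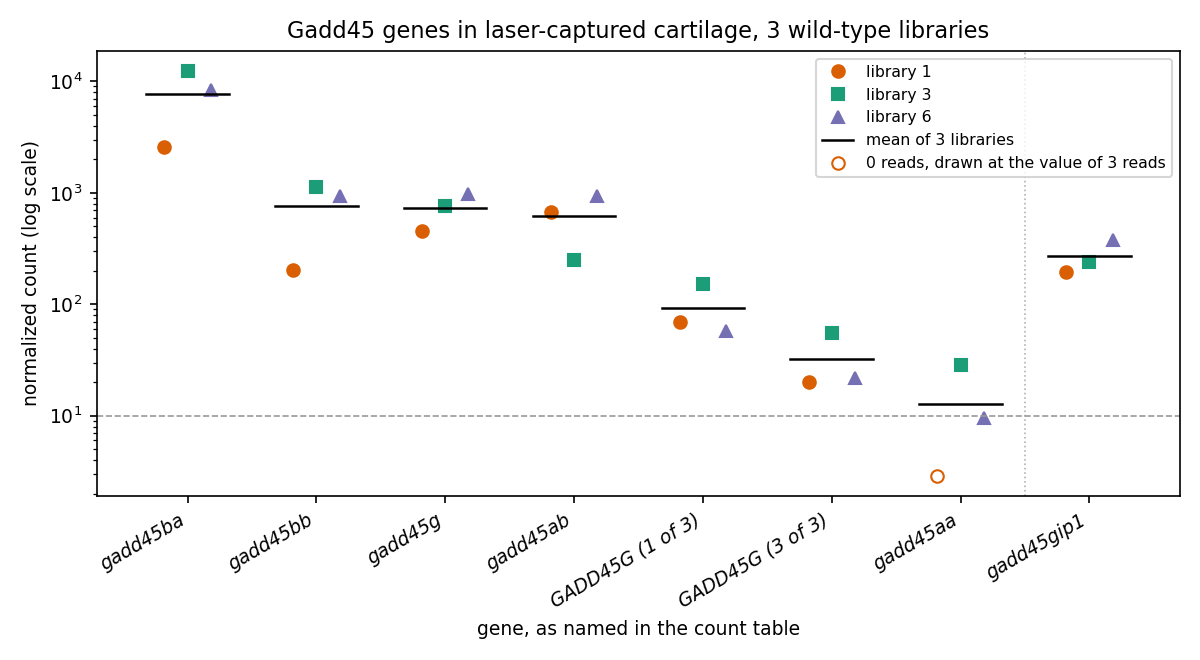
Normalized counts (log scale) of the 7 Gadd45 family genes and of gadd45gip1, right of the dotted line. Each symbol is 1 library, the bar is the mean of 3 libraries, the dashed line is the minimum of 10, and the open circle is a library with 0 reads drawn at the value of 3 reads. The gene gadd45ba lies above every other family gene in each library.

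The gene gadd45ba, a zebrafish copy of Gadd45b, dominated the family. Libraries 1, 3 and 6 held 2692, 11257 and 8811 of its reads, or 2598, 12399.7 and 8343 normalized counts. Library 1 was thus well below the others, while libraries 3 and 6 lay closer together. The mean was 7780 ± 4925 normalized counts (SD, n = 3 libraries), which placed gadd45ba 175th of 14417 rows. By reads it ranked 514th, 124th and 178th in the 3 libraries. In library 1 it took 64.5% of the family's reads, with a 95% Wilson interval of 63.0 to 65.9%. Library 3 gave 83.9% (83.3 to 84.5%), and library 6 gave 73.8% (73.0 to 74.6%). Its mean share was 74.1 ± 9.71% (SD, n = 3 libraries). These intervals cover counting error only. They treat reads as independent, which amplified reads are not, so they may be too narrow even for that. The spread between libraries was far wider than any of these intervals.

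**Figure D2:**
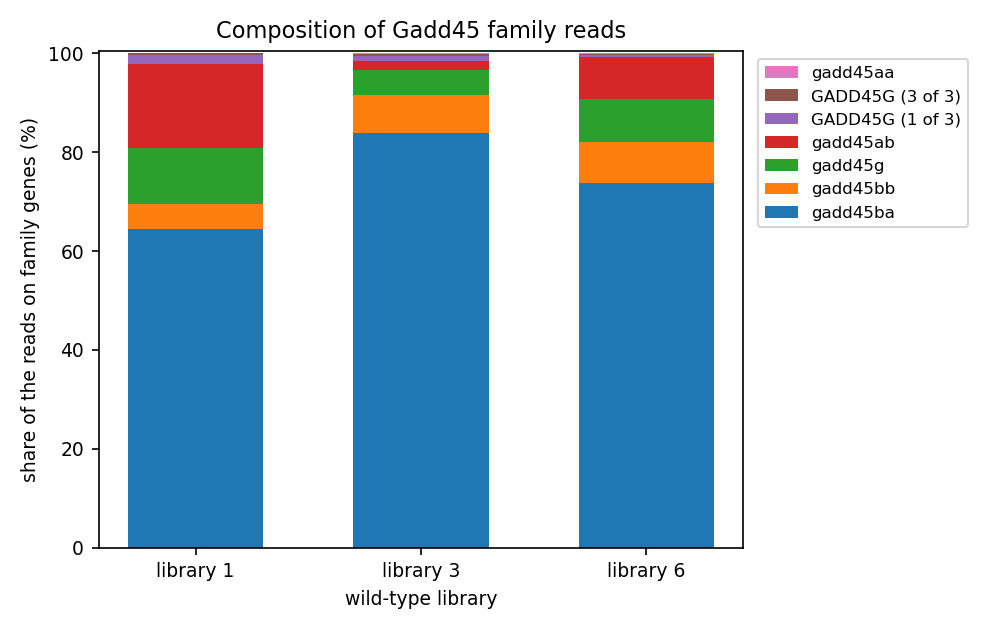
Stacked bars give the share (%) of the reads on the 7 Gadd45 family rows that each gene took, in each of 3 wild-type libraries. From left to right, the gadd45ba share was 64.5%, 83.9% and 73.8%, and the gadd45ab share (red) was 16.9%, 1.71% and 8.36%.

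The other gadd45b copy, gadd45bb, stood at 202.7, 1124.6 and 938.3 normalized counts in libraries 1, 3 and 6, with a mean of 755 ± 488. Its pattern repeated that of gadd45ba at a lower level. Reads on gadd45ba exceeded those on gadd45bb by 12.8 times, 11.0 times and 8.89 times in the same libraries. The log2 ratio of gadd45ba to gadd45bb was 3.43 ± 0.26 (SD, n = 3 libraries), so this ratio varied much less than either gene did, the SD of log2 levels being 1.17 for gadd45ba and 1.35 for gadd45bb. An exact two-sided sign-flip permutation test over the 3 libraries gave p = 0.25, which is the smallest p that 3 libraries allow, and 0.292 after Benjamini-Hochberg adjustment over the 21 pairs of family rows. Counts were not corrected for transcript length, since no transcript lengths were used here, so ratios between genes are ratios of reads. Reads that fit both copies of a duplicated gene may also have been split between them or lost.

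For the gadd45a copies, gadd45ab was well detected and gadd45aa was near the limit. The levels of gadd45ab were 679.5, 252.2 and 945.0 normalized counts in libraries 1, 3 and 6 (mean 626 ± 350). Library 3, where gadd45ba was at its highest, was thus the lowest for gadd45ab. Its share of the family's reads was 16.9%, 1.71% and 8.36%. In contrast, gadd45aa had 0 reads in library 1, 26 in library 3 (exact Poisson interval 17.0 to 38.1) and 10 in library 6 (4.8 to 18.4). Against a floor of 3 reads in library 1, gadd45aa was 9.89-fold higher in library 3, a ratio that leaves out the counting error of the 26 reads. The exact Poisson interval of the 0 reads in library 1 reaches 3.69, which would give a lower ratio. Library 6 is given no such ratio, because its interval comes close to that of library 1. These Poisson intervals also treat amplified reads as independent, so they may likewise be too narrow. Absence of gadd45aa from library 1 was not separable from a level under 3 reads at this depth.

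Of the gadd45g rows, gadd45g itself had 457.5, 763.3 and 982.8 normalized counts in libraries 1, 3 and 6, with a mean of 735 ± 264, and its highest library was 2.15 times its lowest. GADD45G (1 of 3) was at 69.5, 152.0 and 57.8 normalized counts, and GADD45G (3 of 3) at 20.3, 55.1 and 21.8. Both numbered copies were thus highest in library 3 and nearly level between libraries 1 and 6, unlike gadd45g, which was highest in library 6. The gene gadd45gip1, outside the family, had 195.9, 237.9 and 378.7 normalized counts (mean 271 ± 95.8) and stayed within 1.93-fold between libraries.

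In the order of mean levels in reads, gadd45ba came first and was followed by gadd45bb, gadd45g and gadd45ab, then GADD45G (1 of 3), GADD45G (3 of 3) and gadd45aa. The order of gadd45bb, gadd45g and gadd45ab did not hold across libraries. The log2 ratio of gadd45bb to gadd45g was -0.23 ± 0.88, that of gadd45bb to gadd45ab 0.13 ± 1.95 and that of gadd45g to gadd45ab 0.36 ± 1.11, and each of these had 2 libraries on one side and 1 on the other. In library 6 their levels were almost alike, between 938.3 and 982.8 normalized counts. The other 18 of the 21 pairs went the same way in all 3 libraries, which with 3 libraries still gives p = 0.25 each in the exact sign-flip permutation test.

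The spread between libraries was uneven within the family. All 7 rows had a highest library at least 2 times the lowest, as did 73.2% of the 13166 rows that averaged 10 or more normalized counts. With 1 normalized count added to each value, the highest library exceeded the lowest by 5.53 times for gadd45bb, 4.77 times for gadd45ba, 3.74 times for gadd45ab, 2.64 times for GADD45G (3 of 3), 2.60 times for GADD45G (1 of 3) and 2.15 times for gadd45g, against a median of 3.32 over all rows. For gadd45aa it was 29.6, a value that rests on the added 1 because library 1 had 0 reads. Highly expressed genes vary less in general, so each gene was also set beside genes with a mean within 2-fold of its own, a comparison chosen after the values were seen. Among the 235 genes near the level of gadd45ba, the median ratio was 1.71 and 96.6% had a smaller ratio than gadd45ba. The corresponding share was 93.1% of 2413 genes for gadd45bb, 81.5% of 2711 genes for gadd45ab and 55.8% of 2459 genes for gadd45g. At the low end it was 73.3% for gadd45aa, 28.2% for GADD45G (1 of 3) and 18.6% for GADD45G (3 of 3). Without library 1, the highest to lowest ratio of gadd45ba was 1.5 and that of gadd45bb 1.21, so library 1 carried most of the spread of both gadd45b copies. Without library 3 the ratio of gadd45ab was 1.39.

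**Figure D3:**
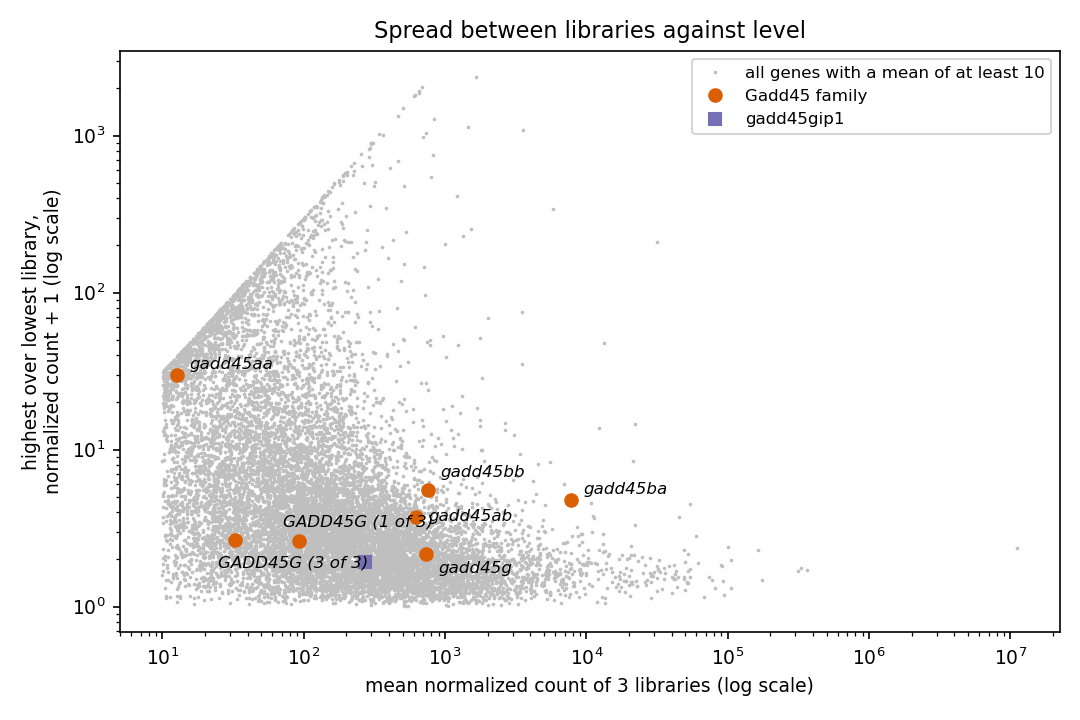
Highest library over lowest library (normalized count + 1, log scale) against the mean normalized count (log scale). Grey points are the 13166 rows with a mean of at least 10, orange circles the Gadd45 family and the purple square gadd45gip1. At 4.77, gadd45ba lies above 96.6% of the 235 genes within 2-fold of its level.

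The family was then compared by its profile over the libraries. Of the 6 family rows past the minimum, gadd45ba and gadd45bb had libraries 3 and 6 at least 2-fold above library 1, as did 18.4% of the 13166 rows with a mean of at least 10. Library 1 was lowest in 4 of these 6 rows, against 38.3%, and library 1 was lowest with library 3 highest in 3 of 6, against 19.5%. Both libraries were at least 2-fold below library 1 in 0 of 6, against 14.8%. These shares are over all 13166 rows, which include rows under the minimum in some library. The family rows and the background were thus filtered differently and are not like for like. The row gadd45aa also had library 1 lowest and library 3 highest, but it averages 12.7 normalized counts only through library 3 and is not counted here. Likeness of profile was measured as the root mean square difference of log2 (normalized count + 1) between 2 genes, each centred on its own mean. Over the 3 libraries this difference was 0.215 between gadd45ba and gadd45bb, and gadd45bb ranked 180th of 9778 rows in nearness to gadd45ba, within the nearest 1.84%. The median difference from gadd45ba over all these rows was 1.06. Likewise, the numbered copies GADD45G (1 of 3) and GADD45G (3 of 3) differed by 0.155 and the second ranked 169th in nearness to the first. The other family rows past the minimum lay farther from gadd45ba, at 0.625 for gadd45g (nearest 16.6%), 0.647 for GADD45G (3 of 3) (17.8%) and 0.798 for GADD45G (1 of 3) (28.3%), all under the median. The exception was gadd45ab, which at 1.53 lay beyond the median, at 80.4%. The row gadd45aa was not ranked. For gadd45g, the nearest of these genes was gadd45gip1, at 0.190. A profile over 3 libraries holds little information, and the nearness of gadd45bb rested on library 1 and library 3. It ranked within the nearest 19.2% without library 1 and 12.3% without library 3. The numbered GADD45G copies ranked within 22.6% without library 3 and 10.5% without library 6.

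**Figure D4:**
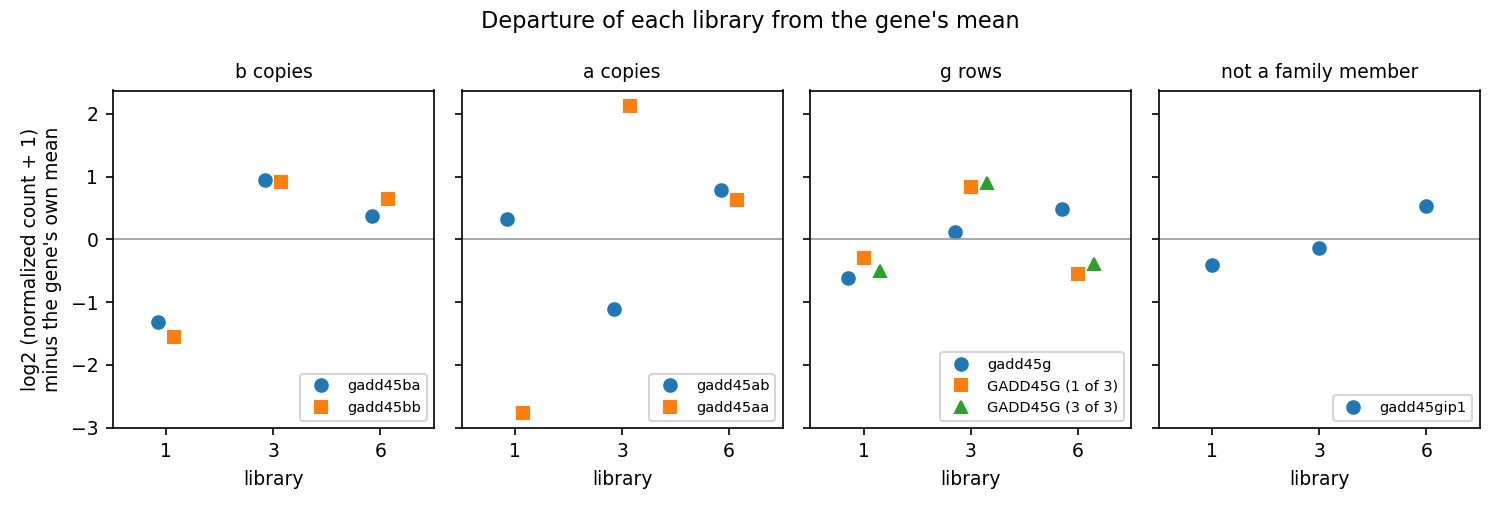
Each panel gives, for 3 libraries, log2 (normalized count + 1) minus the gene's own mean. The gadd45ba and gadd45bb symbols nearly coincide (-1.31 and -1.56 in library 1, 0.94 and 0.91 in library 3, 0.37 and 0.65 in library 6), whereas gadd45ab and gadd45aa lie on opposite sides of 0 in libraries 1 and 3.

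The 5 rows nearest in profile to gadd45ba were alg12, CCDC132 (1 of 2), coro1b, spsb3a and si:ch211-241n15.2, with differences of 0.0109 to 0.0369. Their means were far lower, between 65.0 and 262.3 normalized counts. The highest of them, coro1b, which encodes an actin-binding coronin, had 90.7, 419.7 and 276.5 normalized counts in libraries 1, 3 and 6. The 5 nearest to gadd45bb were srxn1, SMG9, gad2, GPC1 (2 of 3) and rras, with differences of 0.0119 to 0.0504 and means between 53.7 and 161.9. Among these, srxn1 encodes an antioxidant sulfiredoxin, and gad2 an enzyme of GABA synthesis in neurons.

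The summed markers of some other cell types were also lowest in library 1. Of the 9 immune markers written down 6 were found, and their summed level was 195.9, 815.1 and 764.1 normalized counts in libraries 1, 3 and 6. Only coro1a, lcp1 and spi1b of these had 10 or more in every library, as 67.8% of all rows did. Among those under the minimum, lyz, named after its values were seen, had 0 reads in library 1. In libraries 3 and 6 it added 278.7 and 158.1 normalized counts to the sum. The gene spi1b went against the others, with its highest level in library 1. The pan-leukocyte gene ptprc had 1.93, 3.31 and 20.8. All 12 nerve markers found passed the minimum, against 67.8% of all rows, and their sum was 7957, 14543 and 15652. However, the myelin gene mpz and the glial gene gfap, named after their values were seen, were highest in library 1. The nerve markers mbpa and snap25b were lowest in library 3. Summed muscle markers, at 11368, 5703 and 20201, and summed blood markers, at 35458, 5370 and 36936, were lowest in library 3. However, ckmb, pvalb1, desma, pvalb2 and myhz1.1 of muscle were not, nor were hbbe1.1 and si:ch211-5k11.12 of blood. These genes were named after their values were seen, as was hbaa1, which made up most of the blood sum with 32434, 3837 and 28124. Summed perichondrium and bone markers and summed epidermis markers were highest in library 1, as given above. Of the perichondrium and bone genes, sp7, runx2b, panx3, entpd5a and dlx5a, named after their values were seen, were instead highest in library 6. Both sp7 and panx3 were under the minimum. Summed chondrocyte markers were at 998361, 1092453 and 1586705, a sum that can hide the spread of single genes. Taken singly, the 18 chondrocyte markers had a median SD of log2 levels of 0.457, against 0.907 over all rows averaging 10 or more. For gadd45ba it was 1.17, but 1 gene and a median of 18 are not like for like. Some single markers varied more than that median, such as hapln1a, named after its values were seen, with 127.4, 124.5 and 456.4. The part of these cells in the gadd45ba and gadd45bb levels was not tested.

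**Figure D5:**
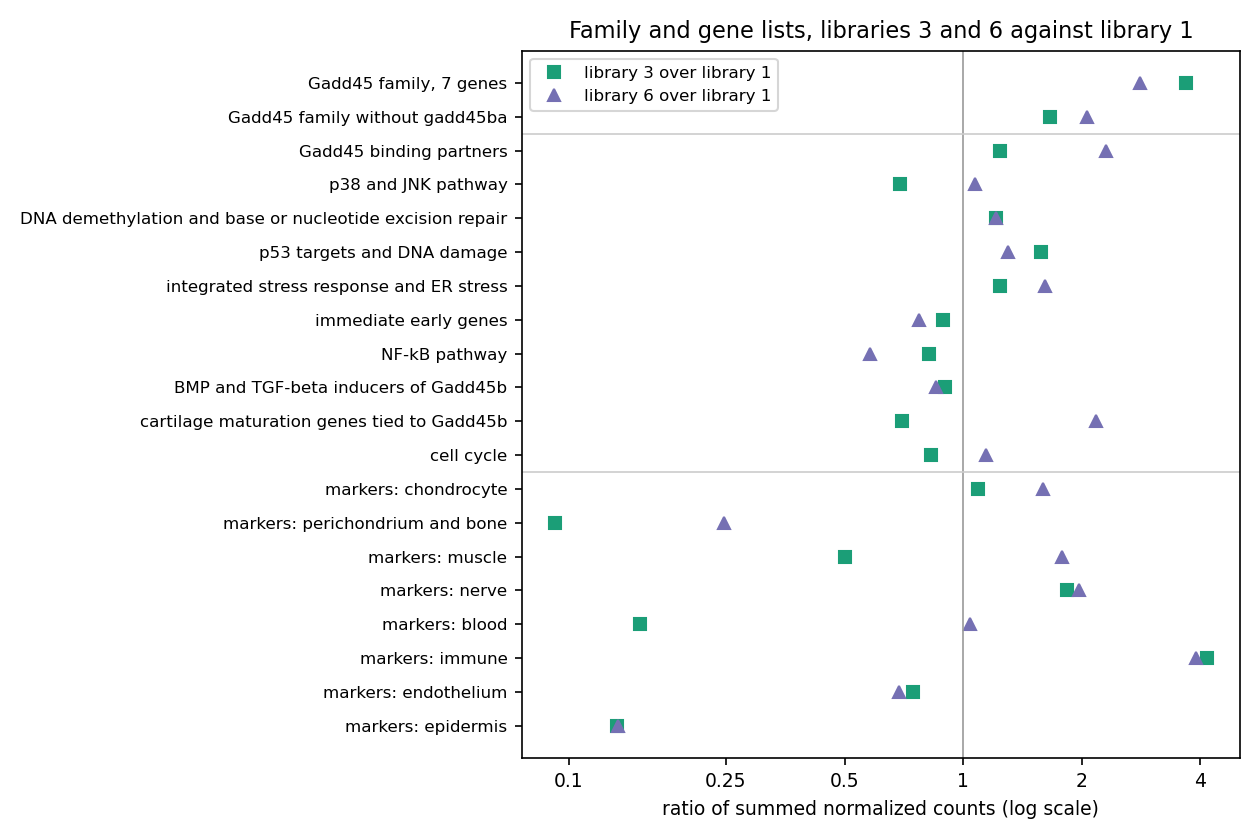
Ratio (log scale) of summed normalized counts in libraries 3 (squares) and 6 (triangles) to library 1, for the family (top), the pathway lists (middle) and the cell type markers (bottom). The family was 3.67 and 2.80 times its library 1 level in libraries 3 and 6, and the immune markers 4.16 and 3.90 times theirs. The immune ratios are raised by lyz, a gene under the minimum with 0 reads in library 1. Without gadd45ba the family was at 1.66 and 2.07.

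Genes written down as binding partners of Gadd45 proteins were present throughout. All 11 that were found reached 10 normalized counts in each library, against 67.8% of all rows. Their median mean level was 396 normalized counts. The upstream kinase map3k4 had 248.1, 165.2 and 119.3 normalized counts in libraries 1, 3 and 6 (mean 178 ± 65.3) and was lowest in library 6. Of the p38 kinase genes, mapk14b averaged 1223 ± 789 and mapk14a 396 ± 204. The copy mapk14a, with 160.2, 514.4 and 514.1, had libraries 3 and 6 at least 2-fold above library 1, as gadd45ba did. It was 1 of 11 partner genes in this, against 18.4% of all rows. The DNA clamp gene pcna averaged 1560 ± 588 and the p21 gene cdkn1a, a cell cycle inhibitor, 741 ± 65.4. With 693.0, 713.8 and 815.2 normalized counts, cdkn1a hardly differed between libraries. Lower levels were found for ccnb2 with 231 ± 127, cdkn1bb with 153 ± 31.5, cdk1 with 103 ± 34.6 and ccnb1 with 98.4 ± 24.5. The translation factor gene eef1a1l1 averaged 100026 ± 46996 and the circadian repressor gene cry1a 775 ± 354. The list is wider than the partners named at the start. Binding of Gadd45 proteins by the products of its other genes, such as cdkn1bb and cry1a, was not checked here.

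Of 22 genes of the p38 and JNK kinase pathway, 14 were found and 10 passed the minimum, against 67.8% of all rows. The most abundant were mapk14b, the kinase gene map3k7 with 850 ± 158 and map2k6, which encodes an activator of p38, with 691 ± 282. The last had 1016.4, 523.2 and 534.0 normalized counts, so it was highest in library 1. Libraries 3 and 6 were both at least 2-fold above library 1 in 4 of 13 genes averaging 10 or more (map2k4a, mapk8a, mapk14a and mapkapk3, named after their values were seen), against 18.4% of all rows. Of these, mapk8a and mapkapk3 were under the minimum, with 4 reads and 1 read in library 1, and average 10 or more only through the other libraries, so the count is no support for a difference from the background.

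Genes of excision repair and DNA demethylation were at moderate levels. Of the 11 found, 9 passed the minimum, against 67.8% of all rows. Here the most abundant were apex1, an endonuclease gene of base excision repair, with 381.5 ± 64.8, and the 5-methylcytosine dioxygenase genes tet1 with 354 ± 24.6 and tet2 with 285 ± 57.1. These 3 genes varied little, with tet1 at 362.0, 326.0 and 373.1 normalized counts in libraries 1, 3 and 6. The list as a whole varied more, with a median SD of log2 levels of 0.729, against 0.907 over all rows averaging 10 or more. Libraries 3 and 6 were both at least 2-fold above library 1 in 1 of 10 genes, against 18.4% of all rows. This was ercc1, with 29.0, 95.8 and 129.7. Both were at least 2-fold below it in 0, against 14.8%. The third dioxygenase gene, tet3, named after its values were seen, had 0 reads in all libraries, which allows up to 3 reads in each.

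Among p53 targets and DNA damage genes, 15 of the 18 found passed the minimum, against 67.8% of all rows. The cyclin G1 gene ccng1, a p53 target in mammals, was the most abundant. Its levels were 4408, 12782 and 10539 normalized counts in libraries 1, 3 and 6, in the same order as those of gadd45ba. Others did not share this order, with the DNA damage sensor gene xpc at 2625, 2438 and 1989 and the p53 inhibitor gene mdm4 at 1777, 2544 and 1416. In all, 6 of 18 genes had libraries 3 and 6 at least 2-fold above library 1, against 18.4% of all rows, and 1 had both at least 2-fold below it, against 14.8%. Of the 6, bbc3 and baxa, named after their values were seen, were under the minimum, so their averages of 10 or more rest on the libraries where they were high.

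Of the integrated stress response and endoplasmic reticulum stress genes, all 20 were found and 18 passed, against 67.8% of all rows. The most abundant was chac1, which encodes a glutathione-degrading enzyme and is a target of ATF4 in mammals, with 5523, 10541 and 16568 normalized counts in libraries 1, 3 and 6. The pseudokinase gene trib3 followed with 1575 ± 1153 and the chaperone gene hsp90b1 with 1551 ± 628. With 2242, 1016 and 1394, hsp90b1 was highest in library 1. Libraries 3 and 6 were both at least 2-fold above library 1 in 4 of 20 genes, against 18.4% of all rows, and both at least 2-fold below it in 1, against 14.8%. Of the 4, dnajb9b, named after its values were seen, was under the minimum, so its average rests on the libraries where it was high.

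Of 42 immediate early genes, which respond within minutes to many stimuli, 32 were found and 28 passed, against 67.8% of all rows. Their sum was 35548, 31579 and 27390 normalized counts in libraries 1, 3 and 6. The antiproliferative gene btg1 averaged 7908 ± 1891 and was highest in library 1. The transcription factor gene cebpd, with 4092, 6957 and 4785, and the survival gene mcl1a, with 3888, 4676 and 4575, had the library order of gadd45ba, though within 2-fold. Of 31 genes averaging 10 or more, 3 had libraries 3 and 6 at least 2-fold above library 1, against 18.4% of all such rows, and 6 had both at least 2-fold below it, against 14.8%. In 5 of them library 1 was lowest and library 3 highest, against 19.5%. Among the genes so counted, fosl1b and egr2b (above library 1) and fosl1a (below it), named after their values were seen, were under the minimum. Their averages of 10 or more rest on the libraries where they were high, so these counts are no support for a difference from the background. Of the NF-kB genes, which include inducers of Gadd45b in mammals, 11 of the 15 found passed, against 67.8% of all rows. Their sum was 7797, 6401 and 4530, and the inhibitor gene nfkbiab averaged 2500 ± 998, map3k7 850 ± 158 and the kinase gene ikbkb 532 ± 387.

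Of the listed BMP and TGF-beta genes, 20 were found and 17 passed, against 67.8% of all rows. The list holds Smads, receptors and Id genes of pathways upstream of Gadd45b in mammals, but not every member lies upstream of it. Its sum was 10702, 9596 and 9153 normalized counts in libraries 1, 3 and 6. The Id genes made up much of this sum, so it says little of the other members. The Id genes, direct BMP targets in mammals, led this list, with means of 3468 ± 685 for id1, 1584 ± 185 for id3 and 1417 ± 594 for id2a. Only id2a of these was highest in library 3, as gadd45ba was. Of 20 genes, 1 had libraries 3 and 6 at least 2-fold above library 1, against 18.4% of all rows, and 4 had both at least 2-fold below, against 14.8%. Of these 4, smad3b, tgfbr1a and tgfbr1b, named after their values were seen, were under the minimum.

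Cartilage maturation genes were set beside the gadd45b copies because of the link known in mouse. Of the 13 found, 11 passed the minimum, against 67.8% of all rows. The signalling gene ihha had 7500, 4343 and 13883 normalized counts in libraries 1, 3 and 6, and col10a1 (col10a1a), the collagen gene of hypertrophic chondrocytes, had 1627, 573.9 and 7069. Both were lowest in library 3, where gadd45ba was highest. The chondrocyte regulator sox9a had 996.1, 1757 and 2289. The collagenase gene mmp13b, named after its values were seen, had 112.9, 494.6 and 121.2 and was thus highest in library 3. It was the only 1 of 13 genes with library 1 lowest and library 3 highest, against 19.5% of all rows. In 0 of 13 were libraries 3 and 6 both at least 2-fold above library 1, against 18.4%. Both were at least 2-fold below it in 1, vegfaa, which was under the minimum, against 14.8%. Of the cell cycle genes, 24 of the 25 found passed, against 67.8% of all rows, and 1 of 25, cdkn1c, had libraries 3 and 6 at least 2-fold above library 1, against 18.4%. They were led by the cyclin D genes ccnd2a with 2754 ± 220 and ccnd1 with 2366 ± 624 and by the replication gene mcm4 with 1839 ± 745. Some genes stand in more than 1 list.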

How the data were processed

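RNA from laser-captured cartilage was amplified for 1 round by the authors, and the counts they deposited are raw reads per gene name, as whole numbers without normalization, for 3 libraries of 1 condition. Per the labels, the submitters' processing notes name Trimmomatic 0.36, edgeR and the genome build Zv9; the aligner and counting tool are not given in the sources used here. No coordinates are printed. Amplification bias and transcript length were not corrected for.

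Counts were normalized with TMM on all genes in edgeR 4.0.16 under R 4.3.3, and other steps used Python 3.11.15 with numpy 2.4.6, pandas 2.3.3 and scipy 1.17.1. Log2 values carry a pseudocount of 1. Scaling, the common dispersion and the direction of changes were tried on simulated data, but the outcome is not given here and nothing is concluded from it. The shares, nearness ranks and highest to lowest ratios were not tested in this way. A listed gene was matched by name, then by a RefSeq synonym (assembly GRCz12tu) where exactly 1 row had one. Of 14417 names, 11815 (82.0%) are in that annotation.

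The family and the gene lists were chosen with earlier results of these data known. Named were every family row and every listed binding partner found, and the 3 most abundant genes of each other pathway list. Also named were the 2 most abundant chondrocyte markers and the 5 rows nearest to gadd45ba and to gadd45bb. Other genes are marked as named after their values were seen, or are markers and members of a small count. Alternatives were size factors of DESeq2 1.42.0, scaling by upper quartiles or by total counts, other gene sets for scaling, raw counts, other minimums and pseudocounts, and leaving out each library.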

Additional observations from a re-analysis of the deposited data

How the results depend on the processing

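The number of family rows past the minimum was 6 of 7 under every scaling and with any library left out, 5 with a minimum of 50 normalized counts and 7 with a minimum of 10 in the mean. The mean level of gadd45ba stayed between 7587 and 8041 normalized counts under other scalings and between 5723 and 10194 with 1 library left out. Its share of the family's reads was 69.2% to 78.9% with 1 library left out, and its log2 ratio to gadd45bb 3.31 to 3.57. For gadd45ba the highest over the lowest library, 4.77, was 5.03 under total-count scaling, 4.45 under total-count scaling without AC024175.4, 5.33 under upper-quartile scaling and 4.18 in raw counts, which follows from the scaling, and 1.5 to 4.77 with 1 library left out. The biological coefficient of variation of gadd45ba in edgeR was 0.477, and 0.366 to 0.509 with 1 library left out. It was 0.552 when all genes entered the fit (cause not tested). The common value over genes was 0.597 in the main fit and 0.92 with all genes. These are fitted values, and the coefficient of variation of the normalized counts of gadd45ba was 63.3%. The place of gadd45bb in nearness to gadd45ba stayed within the nearest 1.71% to 1.95% under other scalings and pseudocounts. Dropping single libraries gave 2.84% to 19.2%. The numbered GADD45G copies were checked in the same way after seeing the data. Counts per coding length were not run, because no lengths were used here. No paired analysis was possible because all libraries are of 1 condition. Depth limits gadd45aa, whose values rest on 0, 26 and 10 reads.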
